A study of Arabidopsis thaliana with 4 samples.

Results

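Jasmonate inactivation was followed through 8 genes of Arabidopsis thaliana, out of 23381 loci with at least 1 read: the 4 jasmonate oxidase genes JOX1 (AT3G11180), JOX2 (AT5G05600), JOX3 (AT3G55970) and JOX4 (AT2G38240), the 3 cytochrome P450 genes CYP94B1 (AT5G63450), CYP94B3 (AT3G48520) and CYP94C1 (AT2G27690), and the amidohydrolase gene ILL6 (AT1G44350). The genes were chosen by locus code for what their products do, with earlier results of these data known, and all 8 had at least 1 read. RNA sequencing was done on roots of 6-day-old seedlings, about 500 per sample, in 4 groups of 1 library each: coi1-2 with 10 µM AlCl3, coi1-2 without Al, wild-type Col with 10 µM AlCl3 and Col without Al. All seedlings were raised and held in a dilute (2%) nutrient solution at low pH. The mutant coi1-2 carries a point mutation in COI1, the F-box receptor of jasmonate, and was the sole mutant line profiled, so a role of COI1 cannot be told apart from other differences of that line. Titles give 6 h of Al and 0 h for the libraries without Al, the treatment protocol gives 6 h for both, and the series' design text gives 24 h. If the libraries without Al were taken at the start, Al and time in solution cannot be told apart. COI1 itself was read at 29.4 RPKM in coi1-2 with Al and 29.8 without, and at 19.6 RPKM in Col with Al and 33.9 without. Because a point mutation can leave the amount of transcript as it is, the labels cannot be checked on COI1.

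Jasmonate acts as its isoleucine conjugate, JA-Ile, which brings COI1 and the JAZ repressors together, so that JAZ proteins are degraded and MYC transcription factors are freed. The signal is removed by several enzymes: JOX proteins hydroxylate jasmonic acid before it is conjugated, CYP94B1 and CYP94B3 hydroxylate JA-Ile, CYP94C1 oxidises it further to the carboxy form, and ILL6 cleaves JA-Ile and its hydroxylated form back to the free acids. Many of these genes are themselves switched on by jasmonate in leaves, which makes their transcripts part of a feedback loop.

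MYC factors are known to bind the letters CACGTG (the G-box) and relatives of it, so the upstream DNA of the 8 genes was searched on both strands for this motif and for its relatives AACGTG, which reads CACGTT on the opposite strand, and CATGTG, which reads as the letters CACATG there. The 3 motifs differ in at least 1 base and cannot match at the same position. Sequences come from the RefSeq genome TAIR10.1. The build behind the deposited positions is not given in the sources used here, but all of the 22470 matched loci overlapped their RefSeq transcripts on the same strand and 59.3% had an identical end. Within 1000 bases before the deposited transcript start, each of the 4 JOX genes and CYP94B3 held AACGTG letters, which 24.6% of all 23239 such windows hold. The 6 sites are shown because all 4 JOX genes hold such letters before their deposited starts, which differ from the RefSeq starts. Each is read 5′ to 3′ in the direction of its gene with the matched letters in capitals.
JOX1 (chr3:3503862-3503887, forward strand): cattttttatCACGTTttcttgaact
JOX2 (chr5:1672068-1672093, forward strand): tacttattcaCACGTTtcattaaata
JOX3 (chr3:20769443-20769468, reverse strand): ctgttgtaaaAACGTGtaccactaca
JOX4 (chr2:16015560-16015585, reverse strand): ctttagttgtCACGTTttgaaagcgt
JOX4 (chr2:16014911-16014936, reverse strand): ctcttttaaaAACGTGtcttattaaa
CYP94B3 (chr3:17977404-17977429, reverse strand): ggagatatgcCACGTTctaaaacttt

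The sites begin 332 bases before the deposited start in JOX1, 42 in JOX2, 134 in JOX3, 822 and 173 in JOX4, and 749 in CYP94B3. RefSeq places the transcript start further upstream, by 50 bases for JOX2, 86 for JOX3 and 238 for JOX4, so the JOX2 site and the nearer JOX4 site lie inside the RefSeq transcript. CYP94B1 and ILL6 held CACGTG in the same window (16.9% of all windows), as did JOX1. JOX2, CYP94C1 and ILL6 held CATGTG letters (37.6% of windows), CYP94C1 at 2 places. In the shorter window of 250 bases before the RefSeq start, AACGTG letters remained in JOX1 and JOX3, against 7.73% of 22469 windows, and JOX4, CYP94B1, CYP94B3 and ILL6 held none of the letters searched. A match is a description of the letters and not evidence of binding. The windows of the 3 JOX genes whose transcripts were read in numbers are given with matches in capitals.
JOX2 (chr5:1671820-1672069, forward strand): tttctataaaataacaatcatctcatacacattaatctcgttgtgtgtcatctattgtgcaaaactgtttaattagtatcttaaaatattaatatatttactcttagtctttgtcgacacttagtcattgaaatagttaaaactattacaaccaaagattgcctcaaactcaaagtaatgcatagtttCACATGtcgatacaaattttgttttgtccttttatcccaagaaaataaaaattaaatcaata
JOX3 (chr3:20769411-20769660, reverse strand): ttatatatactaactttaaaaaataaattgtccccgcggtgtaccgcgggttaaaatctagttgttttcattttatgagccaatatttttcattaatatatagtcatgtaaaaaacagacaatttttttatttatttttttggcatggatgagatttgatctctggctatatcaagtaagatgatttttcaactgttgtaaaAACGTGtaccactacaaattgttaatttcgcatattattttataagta
JOX4 (chr2:16014992-16015241, reverse strand): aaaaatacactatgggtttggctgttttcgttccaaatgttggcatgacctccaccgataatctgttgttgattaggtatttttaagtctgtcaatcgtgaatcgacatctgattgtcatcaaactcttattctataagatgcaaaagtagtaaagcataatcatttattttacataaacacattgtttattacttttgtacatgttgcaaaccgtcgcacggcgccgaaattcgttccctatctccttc

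Transcript levels are given as deposited RPKM, unique reads scaled to transcript length and library total, from libraries of 7.19 M reads for coi1-2 with Al, 7.42 M for coi1-2 without Al, 6.93 M for Col with Al and 7.80 M for Col without Al. The deposited transcripts lie on the forward strand at chr3:3504204-3507057 (JOX1), chr5:1672120-1674739 (JOX2) and chr2:11809306-11811215 (CYP94C1). On the reverse strand they lie at chr3:20766735-20769324 (JOX3), chr2:16012535-16014753 (JOX4), chr5:25408895-25410573 (CYP94B1), chr3:17974977-17976670 (CYP94B3) and chr1:16834210-16838286 (ILL6). None of the 8 genes is overlapped by another RefSeq locus, so the lack of strand information does not mix them with a neighbour. The coding sequences of the JOX genes were 54.7% to 71.7% identical in pairs, with no shared run above 28 bases, and CYP94B1 and CYP94B3 were 69.3% identical with a longest shared run of 31 bases. JOX1 could not be followed: it had 0 reads in coi1-2 with Al, 1 read in coi1-2 without Al, 0 in Col with Al and 0 in Col without Al. Counts are of unique reads per transcript, and whether reads shared by isoforms were dropped could not be settled here. Loci with several isoforms listed had a median of 0.986 RPKM against 5.55 RPKM for the others. If shared reads were dropped, a locus such as JOX1, which has 2 RefSeq transcripts, may be read too low by an unknown amount. JOX2 and JOX3, and CYP94B1, also have 2 RefSeq transcripts, although a single isoform was listed for each of the 8 genes.

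JOX2 was the most highly read JOX gene in every library. It had 37.8 RPKM in coi1-2 with Al and 27.6 in coi1-2 without Al, against 115.1 RPKM in Col with Al and 43.8 in Col without Al, from 287 to 1116 reads. Col with Al stood above the other libraries. JOX4 had 2.50 RPKM (24 reads) in coi1-2 with Al and 0 reads in coi1-2 without Al, where a limit of 3 reads allows up to 0.302 RPKM. In Col it had 31.8 RPKM (295 reads) with Al and 2.21 RPKM (23 reads) without. JOX4 was thus as high in the mutant with Al as in the wild type without it, within counting error on deposited RPKM (95% Poisson intervals 1.60 to 3.71 and 1.40 to 3.31 RPKM). JOX3, also known as JRG21, was read 4 times in coi1-2 with Al (0.401 RPKM) and 2 times in coi1-2 without Al (0.194 RPKM). It was read 90 times in Col with Al (9.36 RPKM) and 5 times in Col without Al (0.462 RPKM). Only Col with Al lifted JOX3 past a level of 1 RPKM, and reads there covered 76.5% of the transcript, against 7.07% to 14.1% in the other libraries.

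The CYP94 genes were ordered differently. CYP94B3 had 22.5 RPKM in coi1-2 with Al and 31.5 in coi1-2 without Al, against 21.8 RPKM in Col with Al and 97.2 in Col without Al, from 256 to 1284 reads. Here Col without Al stood alone at the top, and the intervals of both libraries with Al overlapped on deposited RPKM (19.9 to 25.3 RPKM in coi1-2 and 19.2 to 24.7 in Col). CYP94B1 had 2.73 RPKM in coi1-2 with Al and 11.6 without, and 1.80 RPKM in Col with Al and 15.3 without. Both libraries without Al exceeded both with Al, whichever the genotype. CYP94C1 ran the other way, with 6.70 RPKM in coi1-2 with Al and 2.96 without, and 8.54 RPKM in Col with Al and 4.09 without. Its intervals with Al began at 5.40 RPKM and those without Al ended at 5.26 RPKM, so the treatments did not overlap. ILL6 was weakly read, at 1.17 RPKM in coi1-2 with Al and 1.94 without, and at 2.22 RPKM in Col with Al and 4.44 without, from 17 to 70 reads. Within each treatment the mutant library was below the wild-type library.

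**Figure D1:**
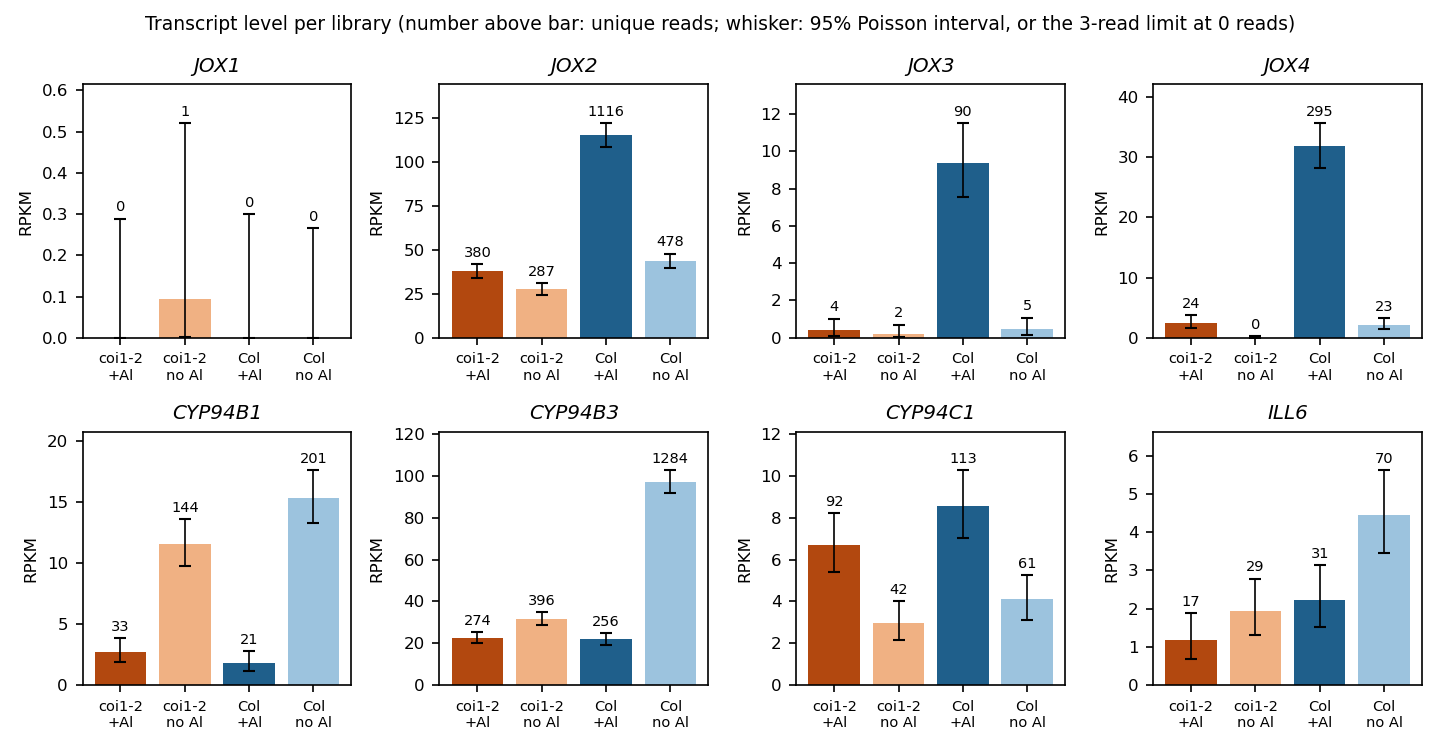
Transcript level of the 8 genes in RPKM (vertical axes, each from 0) in the 4 libraries (horizontal axes); numbers are unique reads and whiskers are 95% Poisson intervals or, at 0 reads, the limit of 3 reads. JOX2, JOX3 and JOX4 are highest in Col with Al, CYP94B3 is highest in Col without Al, and CYP94B1 is higher without Al in both genotypes.

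Summed over the 4 JOX and the 3 CYP94 genes followed here, oxidase transcripts were higher with Al in both genotypes and P450 transcripts were lower with Al in Col. The 4 JOX genes summed to 40.7 RPKM in coi1-2 with Al and 27.9 without, and to 156.3 RPKM in Col with Al and 46.5 without. The 3 CYP94 genes summed to 31.9 RPKM in coi1-2 with Al and 46.0 without, and to 32.2 RPKM in Col with Al and 116.6 without. Divided by TMM factors, the CYP94 sums in coi1-2 lay closer, at 34.4 RPKM with Al and 38.5 without. The ratio of the JOX sum to the CYP94 sum needs no factor for library size. It was not corrected for any trend with transcript length that differs between libraries. It was 1.27 in coi1-2 with Al (95% exact counting interval 1.11 to 1.47) and 0.607 without (0.525 to 0.700), against 4.86 in Col with Al (4.35 to 5.45) and 0.398 without (0.360 to 0.441). In both genotypes the JOX sum thus exceeded the CYP94 sum in the library with Al and lay below it in the library without. The span between treatments was wider in Col, and each ratio comes from 1 library. JOX1, which could not be followed, enters the JOX sums and shares with at most 1 read in a library. The intervals do not allow for reads of JOX1 that may have been dropped. JOX2 made up 92.9% of JOX RPKM in coi1-2 with Al (interval 89.9 to 95.2) and 99.0% without (97.0 to 99.8), and 73.6% in Col with Al (71.3 to 75.9) and 94.3% without (91.8 to 96.2). JOX4 supplied 20.4% in Col with Al (18.3 to 22.5) and 4.75% in Col without Al (3.03 to 7.03), and JOX3 supplied 5.99% in Col with Al (4.84 to 7.31) and 0.995% in Col without Al (0.324 to 2.31). Among the CYP94 genes, CYP94C1 supplied 21.0% in coi1-2 with Al (17.2 to 25.2) and 6.44% without (4.67 to 8.62), and 26.6% in Col with Al (22.4 to 31.1) and 3.51% without (2.70 to 4.49).

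**Figure D2:**
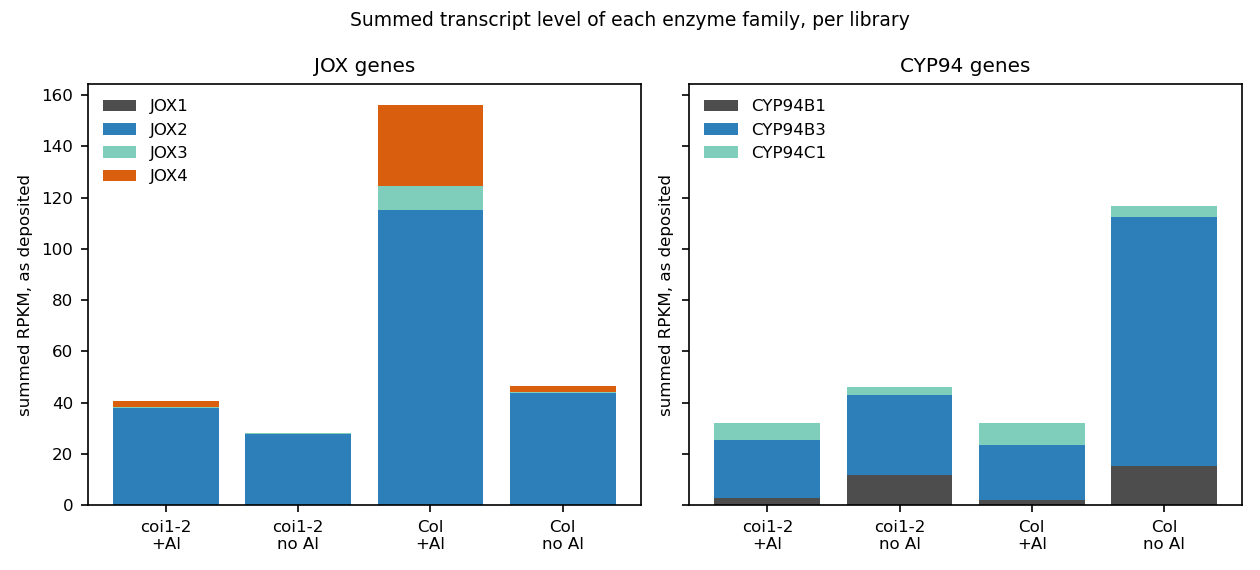
Summed RPKM as deposited (vertical axis) of the JOX genes (left) and the CYP94 genes (right) in the 4 libraries, with each gene as a coloured segment. The JOX sum peaks at 156.3 in Col with Al and the CYP94 sum at 116.6 in Col without Al.

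The Al effect over both genotypes was tested by edgeR's quasi-likelihood method on the reads, with genotype as a term and 2 libraries per arm. With Al, JOX4 rose by 4.68 on the log2 scale (SE 0.46, edgeR adjusted p = 3.46e-17). JOX2 rose by 1.45 (SE 0.30, edgeR adjusted p = 1.52e-05), and the rise of CYP94C1 was 1.63 (SE 0.34, edgeR adjusted p = 2.2e-05). CYP94B1 fell by 2.05 on that scale (SE 0.36, edgeR adjusted p = 4.53e-07) and CYP94B3 fell by 0.81 (SE 0.29, edgeR adjusted p = 0.015). ILL6 did not pass (log2 fold change -0.35, SE 0.42, edgeR adjusted p = 0.499). Of the 6 genes past the count filter, 5 thus passed an adjusted p of 0.05, in an experiment where 51.7% of 16477 genes did, 25.5% upwards and 26.2% downwards. That balance depends on scaling, since library totals alone gave 2093 genes higher and 6381 lower. JOX1 and JOX3 were below the filter, and without a filter JOX3 had a log2 fold change of 4.29 (SE 0.61, edgeR adjusted p = 4.61e-11). That value rests on 90 reads in Col with Al against 5 without, since coi1-2 had 4 reads with Al and 2 without. It is therefore not a measured response of both genotypes. With DESeq2 the fall of CYP94B3 did not pass (adjusted p = 0.0929), nor did it in edgeR without the genotype term (edgeR adjusted p = 0.097, in a range from 5.52e-05 over all settings run). Any difference in response between the genotypes counts as error in this fit, which has 1 residual degree of freedom. The error of each gene was moderated with 160.8 prior degrees of freedom from all genes. These p-values thus rest mostly on a spread pooled over genes and little on the gene's own. That spread is what the additive model leaves unexplained in 4 libraries. Nothing in the labels names separate cultures, so it may be technical spread.

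Within each genotype a library pair has no replicate check, and its ratio is described with a counting interval. Ratios are log2 of RPKM + 0.5 after division by TMM factors, since the deposited RPKM put the median of 17514 genes at -0.59 with Al in Col and at -0.32 in coi1-2; a gene was called at 2-fold or more where the 95% interval of the read ratio excluded no change. In Col, JOX4 was higher with Al by 4.19 log2 units (95% counting interval 3.90 to 5.20), JOX3 by 3.87 (3.73 to 6.66), JOX2 by 2.04 (1.90 to 2.22) and CYP94C1 by 1.59 (1.26 to 2.2). CYP94B1 was lower by -2.21 (-3.15 to -1.77) and CYP94B3 by -1.48 (-1.69 to -1.3), and ILL6 was not called at -0.30 (-1.0 to 0.29). Of 17514 genes 42.7% were called in Col, 22.1% higher and 20.5% lower, and 6 of the 7 members past the filter of 1 RPKM in some library; JOX3 passed that filter through Col with Al alone, so it had to be among those called, and 5 of 6 were called without it. In coi1-2, JOX4 was at least 10.6-fold higher with Al against a limit of 3 reads per library, taking its 24 reads as exact (8.25-fold without TMM factors), and the 95% counting interval of its read ratio began at a log2 of 3.0. In the same comparison CYP94C1 was higher by 1.37 (1.0 to 2.1). CYP94B1 was lower by -1.56 (-2.31 to -1.16). JOX2 stood at 0.80 (0.59 to 1.04), CYP94B3 at -0.12 (-0.35 to 0.11), ILL6 at -0.27 (-1.32 to 0.55) and JOX3 at 0.49 on 4 and 2 reads (-1.39 to 4.88), none of them called. In coi1-2, 29.4% of genes were called, 14.7% higher and 14.7% lower, and 3 of the 7 members, 2 higher and 1 lower. With RPKM as deposited, CYP94C1 in Col was at 0.98 and no longer called.

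**Figure D3:**
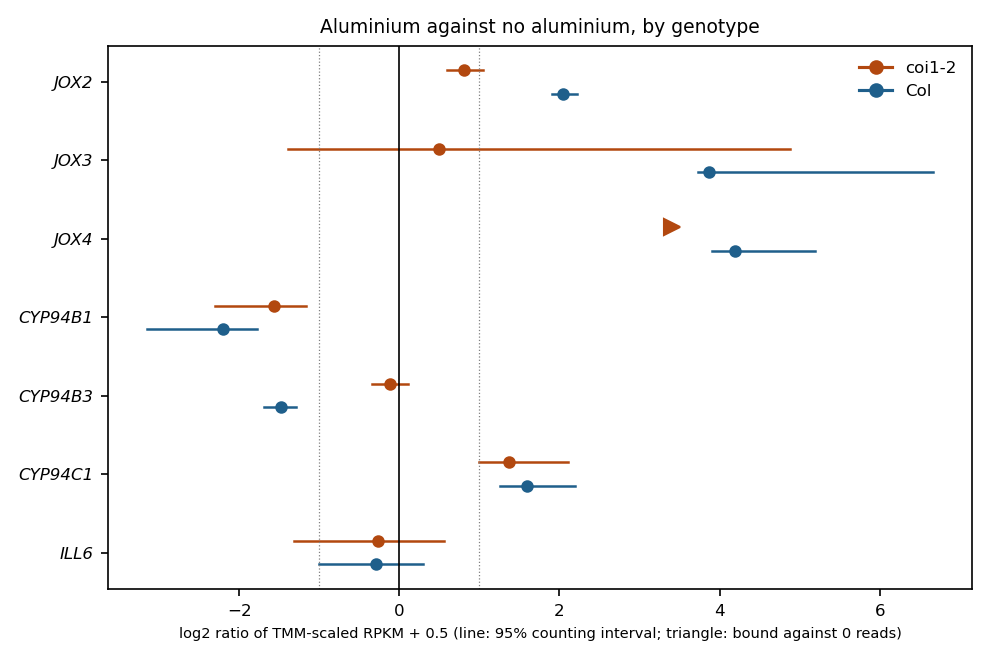
Ratio of Al to no Al (horizontal axis, log2 of TMM-scaled RPKM + 0.5) for 7 genes in coi1-2 (orange) and Col (blue), with 95% counting intervals as lines, dotted lines at 2-fold and a triangle for the bound of JOX4 against 0 reads. JOX2 lies at 0.80 in coi1-2 and 2.04 in Col, and CYP94B3 at -0.12 in coi1-2 and -1.48 in Col, whereas CYP94B1 and CYP94C1 overlap between genotypes.

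The difference of responses, coi1-2 minus Col, was largest on the log2 scale for JOX3, at -3.37 (95% counting interval by normal approximation -5.93 to -0.82), which rests on 2 to 5 reads in 3 of the libraries. It was -1.24 for JOX2 (-1.51 to -0.97) and 1.36 for CYP94B3 (1.06 to 1.65). These 3 members were called at 1 log2 unit, JOX2 and JOX3 lower and CYP94B3 higher, where 7.04% of 17514 genes were, 4.31% lower and 2.73% higher. JOX3 passed the filter only through Col with Al, which itself draws this difference down, and 2 of 6 members were called without it. For JOX4 the difference was -1.52 with an interval from -5.60 to 2.57, because the mutant had 0 reads without Al. Its sign turned with the pseudocount, to 0.36 at a pseudocount of 0.1 against -2.04 at 1, so a smaller response in coi1-2 was not detectable at this depth. CYP94B1 (0.64, -0.20 to 1.48), CYP94C1 (-0.22, -0.91 to 0.47) and ILL6 (0.03, -1.02 to 1.08) were not called. No residual degree of freedom is left for a test of this difference. With RPKM as deposited, JOX2 was at -0.94 and not called, while JOX3 stood at -2.98 and CYP94B3 at 1.65. Green shoot markers also responded less in the mutant: of 12 such genes past the filter 11 were called lower in this difference (median -1.41 against -0.00486 for all genes), as JOX2 and JOX3 were, and their part in the JOX values was not tested.

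Between genotypes, the JOX genes that could be tested were lower in the mutant. Over both treatments the log2 fold change of coi1-2 over Col was -4.14 for JOX4 (SE 0.46, edgeR adjusted p = 2.77e-12) and -1.3 for JOX2 (SE 0.30, edgeR adjusted p = 0.00726). They were 2 of 6 tested members, in a comparison where 0.589% of 16477 genes passed, 0.158% upwards and 0.431% downwards. ILL6 (-1.21, SE 0.42, edgeR adjusted p = 0.261), CYP94B3 (-0.96, SE 0.30, edgeR adjusted p = 0.148), CYP94C1 (-0.57, edgeR adjusted p = 0.717) and CYP94B1 (-0.15, edgeR adjusted p = 0.947) did not pass. JOX3, below the count filter, fell by 4.06 without a filter (SE 0.62, edgeR adjusted p = 1.24e-07), which rests on its 90 reads in Col with Al. JOX2 did not pass with library totals alone (edgeR adjusted p = 0.148) or DESeq2 (adjusted p = 0.156), and without the treatment term neither JOX2 nor JOX4 passed (edgeR adjusted p = 1 for both). In that edgeR fit 0 genes passed, 25 of 16477 had an unadjusted p under 0.05, and none of these was a member. Over all settings run, the adjusted p was 3.56e-07 to 1 for JOX2 and 1.86e-22 to 1 for JOX4.

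Taken by treatment, JOX4 was called lower in coi1-2 both with and without Al. With Al, JOX3 was lower by -3.79 log2 units (-6.75 to -3.44), JOX4 by -3.75 (-4.64 to -3.37) and JOX2 by -1.90 (-2.08 to -1.74), 3 of 7 members. JOX3 passed the filter only through Col with Al, and 2 of 6 were called without it. Of all genes 7.69% were called, 4.65% lower and 3.04% higher. Green shoot markers were lower as well, with 5 of 12 called (median -0.93), and whether they bear on the JOX values was not tested. Without Al, where 3 of those 12 markers were called higher and none lower, CYP94B3 was lower by -1.61 (-1.79 to -1.46), and JOX4 was at least 7.31-fold lower against a limit of 3 reads per library, taking the 23 reads in Col as exact. The 95% counting interval of its read ratio ended at a log2 of -2.45. These were 2 of 7 members. Of all genes 2.62% were called, 1.27% lower and 1.34% higher. JOX2 was at -0.66 without Al (-0.88 to -0.45), short of 2-fold, and CYP94B3 was at -0.25 with Al (-0.51 to -0.01), or 0.04 with RPKM as deposited. ILL6 was close to the 2-fold line under both treatments, at -0.97 with Al (-2.17 to -0.32) and -0.996 without (-1.88 to -0.56). The comparisons with and without Al use separate libraries, but each shares its libraries with the Al comparisons.

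**Figure D4:**
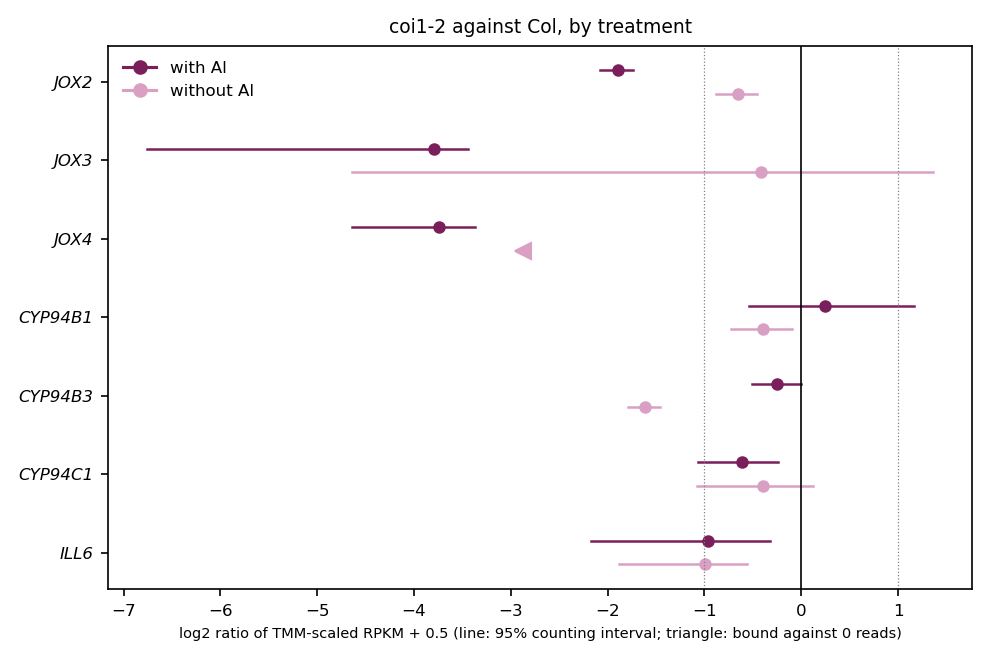
Ratio of coi1-2 to Col (horizontal axis, log2 of TMM-scaled RPKM + 0.5) for 7 genes with Al (dark) and without Al (light), with 95% counting intervals as lines, dotted lines at 2-fold and a triangle for the bound of JOX4 against 0 reads. JOX2 and JOX3 lie further below 0 with Al (-1.90 and -3.79), and CYP94B3 lies further below 0 without Al (-1.61).

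Likeness of pattern was measured as the distance between log2 profiles over the 4 libraries, each centred on its own mean, among 12585 other loci of at least 5 RPKM in some library (12586 for ILL6). The gene most like JOX4 was TAT3, a tyrosine aminotransferase gene, at a distance of 0.60 log2 units. TAT3 had 2.12 RPKM in coi1-2 with Al and 0.164 without, and 24.3 RPKM in Col with Al and 1.56 without. AT2G26380, annotated as a leucine-rich repeat protein, followed at 0.604 with 22.5 RPKM in Col with Al, and no locus lay within 0.5 of JOX4. JOX3 likewise had no locus within 0.5, and its nearest were AT2G16005 (0.729) and the plastid locus ATCG00550 (0.941). JOX2 had 21 such loci, the nearest AT1G31900 (0.0791), annotated as a pseudogene, and AT2G34350 (0.158). CYP94B3 had 7, led by the EF-hand protein gene AT3G01830 (0.141) and the peptide gene CLE6 (0.316). CYP94B3 shared with AT3G01830 a single high library, Col without Al, at 15.1 RPKM against 2.94 to 4.87 RPKM elsewhere for AT3G01830. CYP94B1 had 289 loci within 0.5 and CYP94C1 had 925, so their patterns were common ones. Their nearest were GHR1 (0.0681) and the glucosinolate transporter gene GTR1 (0.0857) for CYP94B1, and AT4G05460 (0.0288) and AT1G76070 (0.0696) for CYP94C1. ILL6 had 36, led by WRKY22 (0.178) and AT3G03280 (0.236). Profiles were centred but not scaled, so the number of loci within 0.5 depends on the size of a gene's changes as well as on its pattern. For JOX3 and JOX4 it also depends on the pseudocount, because of their few or 0 reads in some libraries.

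The list counts below stand against all 16477 genes tested, of which 25.5% rose and 26.2% fell with Al. In the genotype test 0.158% of them were higher and 0.431% lower in coi1-2. Of 17 further genes of jasmonate turnover, 13 were tested for Al, of which 3 rose and 4 fell, with a median log2 fold change of -0.12 against -0.03 for all genes. ST2A, a sulfotransferase that acts on hydroxylated jasmonate, the product of the JOX enzymes, rose by 1.45 (SE 0.29, edgeR adjusted p = 7.09e-06). It had 40.7 RPKM in coi1-2 with Al and 16.7 without, and 47.0 RPKM in Col with Al and 31.0 without. The P450 gene CYP94D1 (-3.22, edgeR adjusted p = 0.000226) and the glycosyltransferase gene UGT76E2 (-1.97, edgeR adjusted p = 0.000651) fell, from at most 71 reads in a library. Of 11 biosynthesis genes tested over both genotypes, KAT2, a thiolase of peroxisomal beta-oxidation, rose with Al by 1.48 (edgeR adjusted p = 4.57e-05) and none fell (median 0.23). Opposite responses can cancel in that test. Of 12 such genes past 1 RPKM, 2 were called higher and 1 lower with Al in Col (all genes 22.1% and 20.5%). In coi1-2, 4 were called higher and none lower (all genes 14.7% each way). In the difference of responses 2 were called higher and none lower (all genes 2.73% and 4.31%). In the genotype test of the 11 genes, the lipoxygenase gene LOX3 fell in coi1-2 (-4.4, edgeR adjusted p = 2.53e-09). AOS, which encodes allene oxide synthase, fell as well (-1.21, edgeR adjusted p = 0.00991), and none rose (median -0.63 against 0.01 for all genes). Of 9 tested JAZ repressor genes, 2 rose with Al, JAZ7 (1.902, edgeR adjusted p = 0.000281) and JAZ12 (0.98, edgeR adjusted p = 0.00212). In coi1-2, 3 JAZ genes fell, JAZ1 (log2 fold change -1.82, edgeR adjusted p = 0.0151), JAZ2 (-1.42, edgeR adjusted p = 0.000978) and JAZ6 (-1.45, edgeR adjusted p = 0.0019). Of 7 regulator genes, 3 fell with Al and none rose (median -1.51). These were MYC2, a master regulator of jasmonate responses (-1.63, edgeR adjusted p = 7.29e-07), MYC4 (-1.84, edgeR adjusted p = 1.25e-07) and JAM1, a repressor of MYC targets (-1.92, edgeR adjusted p = 0.000553). MYC2 had 23.6 RPKM in coi1-2 with Al and 78.8 without, and 22.1 RPKM in Col with Al and 129.8 without. On deposited RPKM MYC2 was, like CYP94B3, highest in Col without Al and lowest in the libraries with Al. With TMM factors, CYP94B3 was not called with Al in coi1-2 (log2 ratio -0.12), so the likeness is not shown in the mutant. None of the 13 further turnover genes nor of the 7 regulators passed the genotype test.

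Markers of cell types moved with Al as well, in a test where 25.5% of all genes rose and 26.2% fell. All 8 endodermis genes and all 7 root hair genes searched had reads in every library. In the endodermis list they summed to 182.1 RPKM in coi1-2 with Al and 926.9 without, and to 110.4 RPKM in Col with Al and 884.7 without, and 6 of 7 tested fell. Root hair genes summed to 136.6 RPKM in coi1-2 with Al and 511.5 without, and to 185.8 RPKM in Col with Al and 509.9 without, and 6 of 7 fell. Of 14 photosynthesis genes that mark green shoot tissue, all 12 tested rose, and their sums were 438.7 RPKM in coi1-2 with Al and 167.0 without, and 658.3 RPKM in Col with Al and 126.5 without. LHCA1 was at 0 in every library and LHCA3 at 0 in coi1-2 with Al. Sums for the root cap were 13.6 to 15.1 RPKM with Al and 46.9 to 48.3 without, for dividing cells 51.8 to 52.7 with and 72.3 to 88.4 without, for xylem 78.3 to 107.7 with and 134.2 to 140.6 without, and for phloem 53.8 to 64.6 with and 33.1 to 33.5 without. All these sums are of deposited RPKM, in which the median log2 ratio of all genes with Al was -0.588 in Col and -0.323 in coi1-2. In the Al test, 2 of 4 root cap genes fell. Of 5 dividing cell genes 3 fell and 1 rose, of 5 xylem genes 1 fell, and the 1 phloem gene tested rose. No tested gene of these lists passed the genotype test, which 0.589% of all genes passed. Fewer cells of a type and less RNA per cell cannot be told apart in whole roots, and the part of these shifts in the JOX and CYP94 values was not tested.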

How the data were processed

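Per the labels' protocols, libraries for Illumina sequencing came from fragmented poly(A) RNA of roots, primed with random hexamers, and no strand-keeping step is described. The deposited tables, 1 per library, list transcripts with at least 1 read. Per the file headers, the authors' read counts are unique reads per transcript, their RPKM divide these by length and library total, and their coverage is the percent of transcript length covered. Recomputed RPKM matched the deposited RPKM to within 1e-09. Neither aligner nor genome build is stated in these sources, so both are not given here.

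Reads and RPKM were summed over isoforms (26912 transcripts, 23381 loci), and a transcript absent from a table counted as 0 reads. Counts were tested with edgeR 4.0.16 in R 4.3.3 (TMM factors 0.929 for coi1-2 with Al, 1.20 for coi1-2 without Al, 0.754 for Col with Al and 1.19 for Col without Al, filterByExpr, genotype and Al as additive terms, Benjamini-Hochberg adjustment over 16477 genes, common dispersion 0.0385). SE is the log2 fold change over the root of F. The scripts were tested on simulated data. Library pairs are described by ratios with 95% exact (Clopper-Pearson) intervals of the reads, which leave out the pseudocount of 0.5 used for the ratio. Intervals cover counting error only, since PCR copies are not independent molecules. Alternatives were other size factors, filters, pseudocounts, a length offset, DESeq2 1.42.0 and limma 3.58.1. The limma fit was on log2 of deposited RPKM + 0.5, without TMM factors.

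The members, lists and alternatives were chosen with earlier results of these data known. Named genes are the 8 members, COI1, MYC2, up to 3 genes per pathway list with the largest change among those that passed, and the 2 nearest profiles of each member with 30 or more reads. No protein sequences were used here.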

Additional observations from a re-analysis of the deposited data

Results flagged for a closer look

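With TMM factors, the genotype difference of CYP94B1 had opposite signs under the treatments. The log2 ratio of coi1-2 to Col was 0.25 with Al (95% counting interval -0.54 to 1.16) and -0.39 without Al (-0.73 to -0.10), neither reached 2-fold, the interval with Al spanned 0, and the difference was not tested. With RPKM as deposited, CYP94B3 also had opposite signs, 0.04 with Al and -1.61 without.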

How the results depend on the processing

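No called member changed direction under any alternative run. The Al test called 8518 genes, 4198 higher and 4320 lower, or 5664 with DESeq2, and the split was 2093 and 6381 with library totals alone and 2380 and 6573 with limma. The limma run used log2 of deposited RPKM + 0.5 and, like library totals alone, had no TMM factors. It called no fewer than 4 of the 6 tested members under each alternative. The genotype test called 97 genes and 2 members. It called 63 genes with median-of-ratios factors, 49 and 1 member with library totals alone, 208 and 4 members with the length offset, 16 and 1 member with DESeq2, and 0 and 0 members without the treatment term (edgeR, with 25 genes at an unadjusted p under 0.05). With the length offset CYP94B3 (-1.04, edgeR adjusted p = 0.000198) and ILL6 (-1.34, edgeR adjusted p = 0.0391) also passed. With the length trend removed, genes called between genotypes with Al numbered 747 in place of 1347, and in the difference of responses 765 in place of 1233, with 4 and 3 members called. With RPKM as deposited, 2001 genes were higher and 6264 lower with Al in Col, against 3879 and 3599 with TMM factors; in coi1-2 the counts were 1641 and 4064, against 2579 and 2575. Between genotypes with Al they were 1379 and 328, against 533 and 814, and in the difference of responses 1227 and 334, against 478 and 755. ILL6 passed 2-fold between genotypes with a pseudocount of 0.1 (-1.16 with Al, -1.15 without), with the length trend removed (-1.23 with Al, -1.02 without), with RPKM as deposited (-1.02 without Al) and with median-of-ratios factors (-1.005 with Al). Divided by TMM factors, the JOX sums became 43.8 RPKM in coi1-2 with Al, 23.3 in coi1-2 without Al, 207.4 in Col with Al and 38.9 in Col without Al, so that coi1-2 with Al lay above Col without Al and not below it, and the CYP94 sums 34.4 in coi1-2 with Al, 38.5 in coi1-2 without Al, 42.7 in Col with Al and 97.7 in Col without Al. The cause of these shifts was not tested. Leaving out a library left no residual degrees of freedom, so it was not run. No paired analysis was possible because each group holds 1 library. Counts of 2 to 5 reads limit JOX3 outside Col with Al, and 0 reads limit JOX4 in coi1-2 without Al.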
